A study of Mus musculus with 36 samples.

Results

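miR-33 is a microRNA made from an intron of Srebf2, the gene of the sterol-sensing transcription factor SREBP-2. The 2 mature arms cut from its hairpin, mmu-miR-33-5p and mmu-miR-33-3p (called miR-33-5p and miR-33-3p here), were taken by name from the table of read counts, with the line of the highest total where a name had several. They are 2 of the 1966 mature miRNAs named there, and each arm had 1 line. Small RNA had been sequenced from the liver and from eWAT, the white fat pad beside the epididymis, of male, wild-type C57BL/6 mice of an F1 generation, aged 24 weeks. Each tissue had 3 diet groups of 6 libraries, named HFLF, HF and LF, so 36 libraries were compared. The diet labels of these groups are HFLFD, HFD and LFD. All mice had chow until the age of 6 weeks and then 18 weeks of an assigned diet, for which the protocol of every sample names LFD. The labels thus leave unclear whether HFLF, HF and LF were eaten by the mice themselves or by their fathers, and only the group names are used. No label says that replicates are separate mice, so the spread behind each p-value may be technical.

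When sterols are low, cells raise Srebf2 transcription, and miR-33 is produced together with the messenger RNA of its host. Its 5p arm is the better known one and represses Abca1, the transporter that moves cholesterol out of the cell to high-density lipoprotein, as well as genes of fatty acid oxidation such as Crot and Cpt1a. In liver the host and its miRNA are thus described as acting together to keep cholesterol in the cell, and a role in adipocyte differentiation and lipid handling has been described in fat.

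The mature sequences are shown because the arms are distinct miRNAs with different seeds. Targets of the arms were not examined here. Capitals mark the seed, bases 2 to 8 counted from the 5′ end.
miR-33-5p: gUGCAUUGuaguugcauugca
miR-33-3p: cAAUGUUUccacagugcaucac
The 5p arm is 21 bases long and lies at chr15:82198127-82198147, and the 3p arm is 22 bases long and lies at chr15:82198167-82198188, both on the plus strand of GRCm38.p6 (RefSeq). The letters of the 5p seed occur 2 times within the 5p arm itself, the second time near its 3′ end. Neither seed occurs at bases 2 to 8 of any other of the 1679 mature mouse miRNAs searched. A sequence was available for 1675 of the 1966 names counted, and the others were not searched. The hairpin Mir33 (ENSMUSG00000065465.1) is 69 bases long, at chr15:82198122-82198190, and is given here with both arms in capitals to show the 19 bases that separate them.
Mir33 hairpin: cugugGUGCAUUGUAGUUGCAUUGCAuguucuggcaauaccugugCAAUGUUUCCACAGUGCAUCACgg
In the GENCODE annotation of the same build, Srebf2 (ENSMUSG00000022463.8) spans chr15:82147181-82205379 on the plus strand. The hairpin lies in intron 16 of its transcript Srebf2-201, which has 19 exons. It begins 335 bases after the upstream exon ends, and 1444 bases separate it from the next exon.

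Library totals were 7866583 to 18832842 counts in liver and 9066683 to 17714156 counts in eWAT, and 3 counts, the limit that a count of 0 allows, corresponded to 0.159 to 0.381 CPM (counts scaled to a common library total) in liver and 0.169 to 0.331 CPM in eWAT. Such limits and the intervals of counts cover counting error only. The hepatocyte miRNA miR-122-5p took between 45.6% and 57.0% of all counts in livers and between 0.0137% and 0.309% in eWAT, while miR-143-3p, a miRNA of mesenchymal and adipose cells, took 12.8% to 22.8% of eWAT counts. Liver LF replicate 4 and liver HF replicate 6 stood apart, with a count for only 316 and 368 miRNAs, against 540 to 633 in the other livers. The log2 values that the authors deposited for liver cover 16 libraries and leave out this pair. The main fits here keep it. eWAT LF replicates 1 and 4 also stood apart: 5 miRNAs of epithelial cells summed to 15800 and 20633 CPM there, against 61.0 to 287 CPM in the other 16 eWAT libraries.

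miR-33 was scarce in both tissues, and most of it was the 5p arm. miR-33-5p reached 782 counts over all libraries, 496 in liver and 286 in eWAT, and miR-33-3p reached 186 counts, 40 in liver and 146 in eWAT. By mean CPM, miR-33-5p ranked 344 of the 1056 miRNAs with any count in liver, at 2.12 ± 1.42 CPM (SD, n = 18). It ranked 543 of 1314 in eWAT, at 1.15 ± 0.930 CPM (SD, n = 18). miR-33-3p ranked 615 in liver, at 0.187 ± 0.303 CPM, and 630 in eWAT, at 0.620 ± 0.433 CPM (SD, n = 18 each). Next to miR-33-5p in that order were miR-466a-3p, let-7i-3p and miR-9-5p above it and miR-210-3p, miR-187-5p and miR-485-3p below it in liver, all between 2.04 and 2.21 CPM. In eWAT its neighbours were miR-201-5p, miR-141-5p and miR-130a-5p above and miR-1895, miR-210-5p and miR-7034-3p below, between 1.11 and 1.17 CPM. All of these differences were far smaller than the spread of miR-33-5p between libraries. Among the eWAT neighbours miR-141-5p had a count in only 2 libraries, against 15 for miR-33-5p, so its mean rests on those 2. The neighbours of miR-33-3p were miR-471-3p, miR-5114 and miR-194-1-3p above it and miR-3079-5p, miR-7084-5p and miR-8093 below it in liver, within 0.186 to 0.189 CPM. In eWAT they were miR-1198-3p, miR-3109-3p and miR-615-5p above it and miR-7240-5p, miR-92a-1-5p and miR-5128 below it, within 0.615 to 0.639 CPM.

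In liver, miR-33-5p was present in most libraries of every diet group. The 6 HFLF livers had 20 to 73 counts with a median of 28.5, the HF livers 0 to 48 with a median of 33.5, and the LF livers 0 to 65 with a median of 11.5. Every HFLF liver had a count, and the only livers at 0 were HF replicate 6 and LF replicate 4, the pair with few miRNAs detected. Among the LF livers replicate 1 held 60.7% of all counts of its group. Scaled to library totals, miR-33-5p averaged 2.84 ± 0.986 CPM in HFLF livers, 2.0 ± 1.34 CPM in HF livers and 1.51 ± 1.75 CPM in LF livers (SD, n = 6 each). The groups overlapped in every pairing, since LF replicate 1, at 4.89 CPM, was the highest of all livers.

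No diet difference of miR-33-5p in liver passed the test of edgeR's quasi-likelihood fit (adjusted p under 0.05 over 478 miRNAs). The log2 difference was 0.85 ± 0.86 (SE) for HFLF against LF, with a 95% interval of -0.94 to 2.65 and an adjusted p of 0.989. For HF against LF it was 0.31 ± 0.86 (adjusted p = 0.998), and for HFLF against HF 0.54 ± 0.85 (adjusted p = 0.999). All 3 intervals include changes in either direction. Without LF replicate 1 the HFLF against LF difference was 1.61 (adjusted p = 0.995, edgeR) and still did not pass. From counting error alone, the ratio of summed counts per total for HFLF over LF was 1.80 with a 95% interval of 1.42 to 2.29, much narrower than the interval over libraries. Over all miRNAs 0% were called in each of the 3 liver diet comparisons, with 14 at an unadjusted p under 0.05 for HFLF against LF, 16 for HF against LF and 5 for HFLF against HF, and DESeq2 called 0 in each. Without LF replicate 4 and HF replicate 6, edgeR again called 0 of 488 miRNAs in each.

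miR-33-3p was at or near the detection limit in liver. HFLF livers had 0, 8, 11, 5, 0 and 4 counts in replicates 1 to 6, HF livers 0, 0, 6, 0, 3 and 0, and LF livers 0, 3, 0, 0, 0 and 0. It was thus counted in 4 of 6 HFLF livers, 2 of 6 HF livers and 1 of 6 LF livers, and the groups overlapped at 0. The means were 0.403 ± 0.421 CPM in HFLF livers, 0.101 ± 0.171 CPM in HF livers and 0.0586 ± 0.144 CPM in LF livers (SD, n = 6 each). The 28 counts of the HFLF group against 3 of the LF group gave a ratio of 8.23 per total count, with a counting interval of 2.54 to 42.3. Between libraries the difference did not hold: an exact two-sided permutation test of CPM gave p = 0.106 for HFLF against LF, or 0.409 after adjustment over 18 comparisons of the arms. The arm did not pass the filter on low counts in liver. Without that filter the log2 difference was 2.44 ± 1.92 for HFLF against LF (SE, adjusted p = 0.660, edgeR), 0.57 ± 1.75 for HF against LF (adjusted p = 1) and 1.87 ± 1.86 for HFLF against HF (adjusted p = 0.811).

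**Figure D1:**
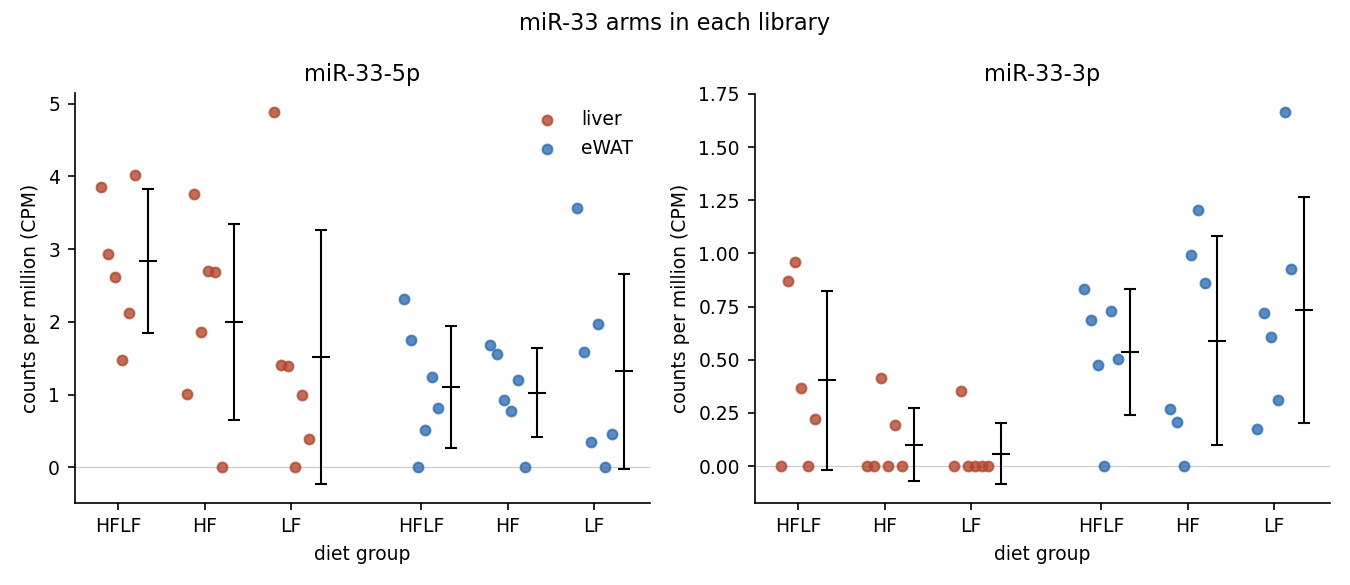
CPM of miR-33-5p (left) and miR-33-3p (right) in each of 36 libraries, by tissue and diet group; points are libraries, and the black dash and bar beside each group are its mean ± SD (n = 6). The 5p arm averaged 2.84 CPM in HFLF livers, 2.0 in HF livers and 1.51 in LF livers with overlapping points, and the 3p arm was at 0 in 11 of 18 livers.

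In eWAT the 5p arm was lower and the 3p arm was counted more often. miR-33-5p had 0 to 39 counts with a median of 15 in HFLF libraries, 0 to 25 with a median of 12 in HF libraries and 0 to 62 with a median of 13 in LF libraries. One library of each group was at 0, HFLF replicate 3, HF replicate 6 and LF replicate 5, although 755 to 794 miRNAs had a count in these 3 libraries. The means lay close together at 1.11 ± 0.844 CPM in HFLF, 1.03 ± 0.615 CPM in HF and 1.32 ± 1.34 CPM in LF (SD, n = 6 each). Here too the groups overlapped, and LF replicate 1 was the highest, at 3.57 CPM.

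Diet differences of miR-33-5p in eWAT were within the spread between libraries as well. edgeR gave a log2 difference of -0.28 ± 0.98 for HFLF against LF (SE, adjusted p = 0.936), -0.41 ± 0.99 for HF against LF (adjusted p = 0.949) and 0.12 ± 0.99 for HFLF against HF (adjusted p = 0.997). The 62 and 19 counts of LF replicates 1 and 4, the libraries with epithelial miRNAs, were the first and the third highest of their group. Without this pair the difference changed sign, to 0.92 for HFLF against LF (adjusted p = 0.945) and 0.81 for HF against LF (adjusted p = 1.00). The part of the epithelial RNA in the eWAT LF level was not tested. edgeR called 0% of 638 miRNAs in each eWAT diet comparison, with 98 at an unadjusted p under 0.05 for HFLF against LF, 49 for HF against LF and 21 for HFLF against HF, and DESeq2 called 33, 16 and 0 in the same order, neither arm among them. Without eWAT LF replicates 1 and 4 edgeR again called 0 in each, and 46, 13 and 32 of 673 miRNAs had an unadjusted p under 0.05.

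miR-33-3p was counted in 16 of 18 eWAT libraries. HFLF libraries had 0 to 14 counts with a median of 8.5, HF libraries 0 to 13 with a median of 6.5, and LF libraries 3 to 21 with a median of 8.5. All 3 groups overlapped almost entirely, and the highest library was LF replicate 5, where the 5p arm was at 0. Mean levels were 0.538 ± 0.296 CPM in HFLF, 0.589 ± 0.492 CPM in HF and 0.734 ± 0.531 CPM in LF (SD, n = 6 each). The edgeR log2 differences were -0.40 ± 0.90 for HFLF against LF (SE, adjusted p = 0.912), -0.30 ± 0.90 for HF against LF (adjusted p = 0.968) and -0.10 ± 0.91 for HFLF against HF (adjusted p = 0.997).

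Whether a diet difference was larger in liver than in eWAT was tested by an interaction in one edgeR fit over both tissues. For miR-33-5p the HFLF against LF difference was larger in liver than in eWAT by 1.07 ± 1.36 on the log2 scale (SE, adjusted p = 0.952) and the HF against LF difference by 0.64 ± 1.36 (adjusted p = 1.00). miR-33-3p gave 3.07 ± 1.72 for HFLF against LF (unadjusted p = 0.0821, adjusted p = 0.547) and 1.12 ± 1.72 for HF against LF (adjusted p = 0.975). Neither arm passed, where 1.91% of the 681 miRNAs passed for HFLF against LF and 2.5% for HF against LF.

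The clearest differences lay between the tissues. miR-33-5p was higher in liver than in eWAT, and this was past the threshold in the HFLF group and over the 3 groups together. In bulk tissue, fewer cells that make a miRNA and less of it per cell cannot be told apart. In HFLF, livers had 1.47 to 4.02 CPM with a median of 2.78, against 0 to 2.32 CPM with a median of 1.03 in eWAT. In HF, livers had 0 to 3.75 CPM with a median of 2.27, against 0 to 1.69 CPM with a median of 1.06 in eWAT. In LF, livers had 0 to 4.89 CPM with a median of 1.2, against 0 to 3.57 CPM with a median of 1.02 in eWAT. The tissues overlapped in all 3 groups, least in HFLF and most in LF, where both highest libraries were replicate 1.

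With the TMM scaling of edgeR the log2 difference of miR-33-5p, liver minus eWAT, was 2.50 ± 1.00 in HFLF (SE, adjusted p = 0.0371), 2.07 ± 0.99 in HF (adjusted p = 0.0818) and 1.43 ± 0.98 in LF (adjusted p = 0.233). Only the HFLF difference passed, where 48.6% of the 681 miRNAs passed in either direction and 19.2% were higher in liver. In HF 49.6% and in LF 47.4% of miRNAs passed. The HFLF call rested on single libraries: the adjusted p was 0.0571 without liver HFLF replicate 1, 0.0673 without liver HFLF replicate 6 and 0.0542 without eWAT HFLF replicate 4. In HF the difference passed without liver replicate 6, one of the pair with few miRNAs (2.33, adjusted p = 0.0363). Averaged over the 3 groups, a comparison chosen after seeing the data, the difference was 2.0 ± 0.57 (95% interval 0.84 to 3.16, adjusted p = 0.00230, edgeR), and it passed whichever 1 of the 36 libraries was left out. Here 67.8% of miRNAs passed and 24.4% were higher in liver.

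The size of this tissue difference depended on the scaling. TMM factors were 0.575 to 0.807 in liver and 1.37 to 1.68 in eWAT. Under plain library totals the difference over the 3 groups was 0.83 (adjusted p = 0.173, edgeR) and that of HFLF was 1.35 (adjusted p = 0.237). The same change of scaling moved the median log2 difference of all 681 miRNAs over the 3 groups to -1.65, against -0.46 with TMM. miR-33-5p was therefore above the median miRNA by about the same amount under both scalings. On plain CPM, a permutation test with tissue exchanged within each diet group gave a difference of 0.965 ± 0.401 CPM (SE, p = 0.0233, adjusted over 3 quantities 0.0233, 18 libraries per tissue). miR-33-5p kept its direction, higher in liver, under all 4 scalings plotted.

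The CPM of miR-33-3p was lower on average in livers than in eWAT in all 3 groups. HFLF livers had 0 to 0.959 CPM with a median of 0.295, against 0 to 0.831 CPM with a median of 0.595 in eWAT. HF livers had 0 to 0.412 CPM with a median of 0, against 0 to 1.2 CPM with a median of 0.565 in eWAT. LF livers had 0 to 0.352 CPM with a median of 0, against 0.173 to 1.66 CPM with a median of 0.664 in eWAT. The only LF liver above 0 lay above 2 of the 6 LF eWAT libraries, and the other 5 lay below all of them.

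The edgeR log2 difference of miR-33-3p, liver minus eWAT, was 0.65 ± 1.13 in HFLF (SE, adjusted p = 0.655), -1.31 ± 1.18 in HF (adjusted p = 0.376) and -2.42 ± 1.31 in LF (adjusted p = 0.125). None passed, and the sign of the HFLF value turned to -0.42 under plain totals (adjusted p = 0.773). Over the 3 groups the value was -1.03 ± 0.69 with TMM (adjusted p = 0.186) and -2.15 ± 0.70 with plain totals (adjusted p = 0.00578). Under plain totals 547 of the 681 miRNAs passed, 486 of them lower in liver, and the median of all was -1.65. With TMM 462 passed, 296 of them lower in liver. On plain CPM, which uses plain totals too, the difference over the 3 groups was -0.433 ± 0.124 CPM (SE, permutation p = 0.00149, adjusted over 3 quantities 0.00223). That test was added after seeing the data. In the exact permutation test per group, the p-values adjusted over 18 comparisons were 0.855 in HFLF, 0.312 in HF and 0.0974 in LF. Leaving out liver LF replicate 2, the only LF liver with a count, left no LF liver with a count. With TMM the values were then -5.81 in LF (adjusted p = 0.0106) and -2.05 over the 3 groups (adjusted p = 0.0233). A larger difference was fixed by the choice of that library, so no conclusion is drawn from these values.

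**Figure D2:**
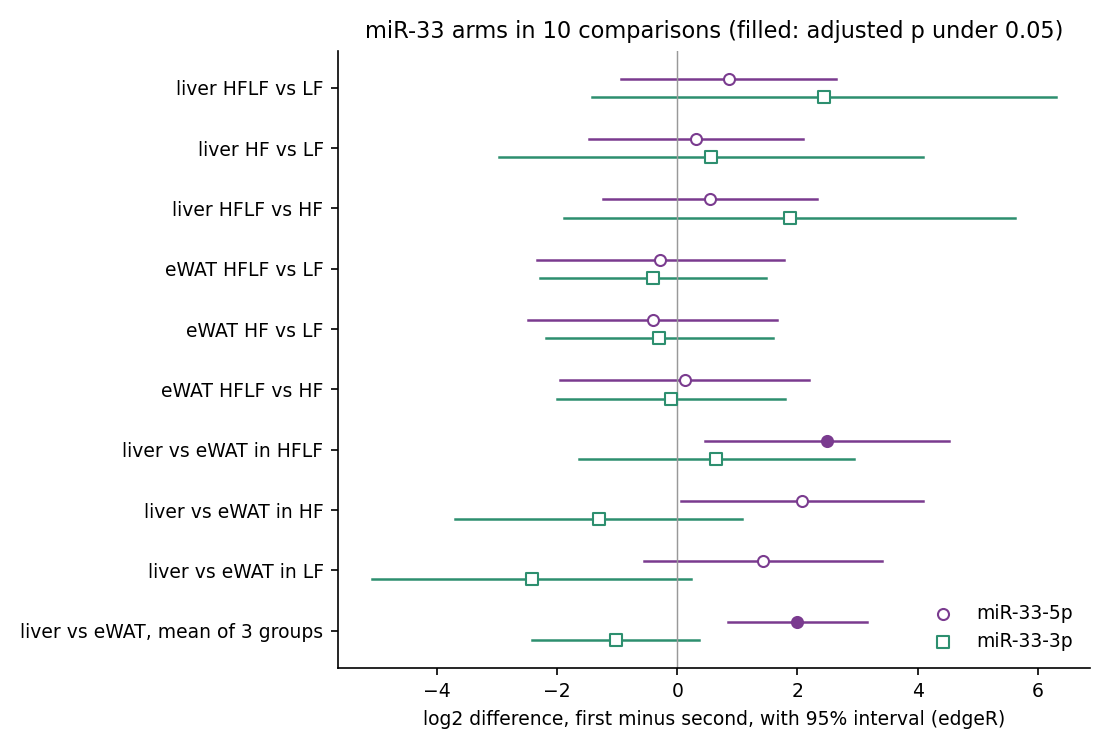
Log2 differences of miR-33-5p (circles) and miR-33-3p (squares) in 6 diet and 4 tissue comparisons, first group minus second, with 95% intervals from edgeR; filled symbols had an adjusted p under 0.05. All diet intervals include 0, and the filled values are those of miR-33-5p for liver against eWAT, 2.50 in HFLF and 2.0 over the 3 groups.

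**Figure D3:**
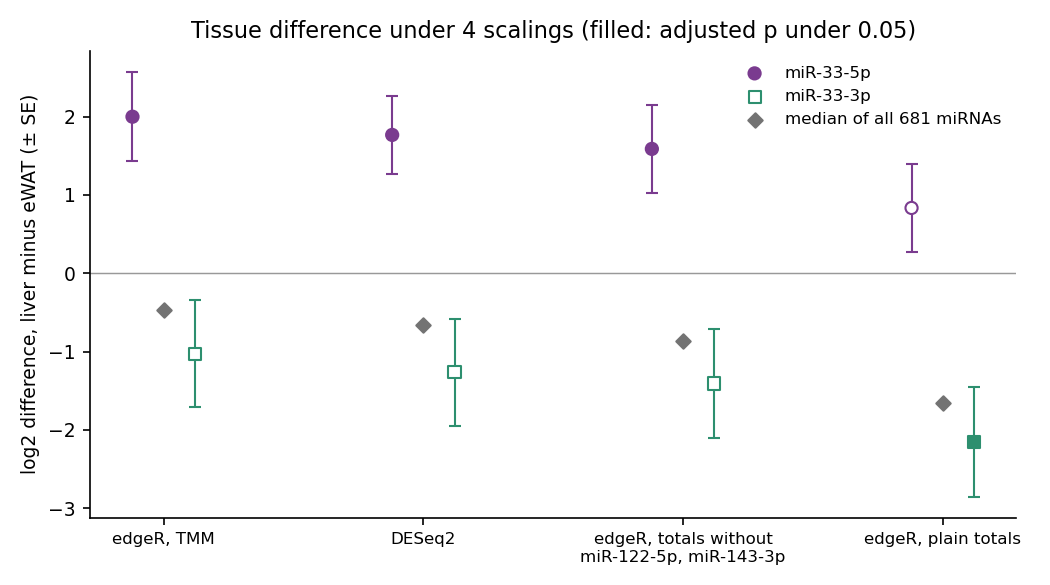
Liver minus eWAT log2 difference over the 3 diet groups for both arms (± SE) and for the median miRNA (diamonds) with 3 edgeR scalings and DESeq2; filled symbols had an adjusted p under 0.05. All points move down together toward plain totals, where miR-33-5p was at 0.83, miR-33-3p at -2.15 and the median miRNA at -1.65.

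The balance of the arms within a library needs no scaling to the library total, and over the 3 groups together it differed between the tissues. miR-33-5p made up 92.5% of the summed counts of both arms in liver (496 of 536, Wilson 95% interval 90.0% to 94.5%) and 66.2% in eWAT (286 of 432, 61.6% to 70.5%). These intervals cover counting error only and leave out the larger spread between libraries. By diet group the share in liver was 88.6% in HFLF, 95% in HF and 97.3% in LF. In eWAT it was 67.8% in HFLF, 64% in HF and 66.3% in LF. Among all hairpins with both arms named and at least 100 summed counts, the median 5p share was 50.8% in liver (416 hairpins) and 54.5% in eWAT (426 hairpins). Ligation and amplification can favour one sequence over another, so a share describes these libraries and not absolute amounts of the arms.

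Counted by library, the 5p arm exceeded the 3p arm in 16 of 18 livers, and the other 2, HF replicate 6 and LF replicate 4, had no count of either. In eWAT the 5p arm was higher in 11 of 18 libraries and the 3p arm in 6, and 1 had 13 counts of each. The 3 eWAT libraries without any 5p count had 7, 12 and 21 counts of the 3p arm. No liver resembled these 3 libraries, since every liver with a 3p count had more 5p counts.

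The log2 ratio of 5p to 3p counts, with 0.5 added to each, had a mean of 3.70 ± 2.27 in liver and 0.54 ± 2.91 in eWAT (SD, n = 18 each). The 3p arm was at 0 in 11 of 18 livers, and in eWAT the 5p arm was at 0 in 3 libraries and the 3p arm in 2. With an arm at 0 the ratio follows the count of the other arm and the added 0.5, and so the library total. Per group the ratio was 3.53 ± 2.19 in HFLF livers, against 0.75 ± 2.64 in HFLF eWAT (SD, n = 6 each, exact two-sided permutation p = 0.0563). In HF it was 3.91 ± 2.56 in liver, against 0.78 ± 3.22 in eWAT (SD, n = 6 each, exact p = 0.0974). In LF it was 3.64 ± 2.45 in liver, against 0.10 ± 3.33 in eWAT (SD, n = 6 each, exact p = 0.0563).

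None of these 3 passed alone, and their p-values adjusted over 9 comparisons of the ratio were 0.253 for HFLF, 0.292 for HF and 0.253 for LF. Of the 430 hairpins, an exact p under 0.05 before adjustment was found for 39.5% in HFLF, 33.7% in HF and 32.6% in LF. Adjusted over the hairpins, 30.7%, 15.8% and 20.5% passed in the same order. Over the 3 groups together, a comparison added after seeing the data, the ratio was higher in liver by 3.15 ± 0.87 on the log2 scale (SE, permutation p = 0.00112 with tissue exchanged within each group, adjusted over 3 quantities 0.00223). An unadjusted permutation p under 0.05 was found for 55.1% of the 430 hairpins, in either direction, and 49.8% passed after adjustment over them. By size of its ratio difference miR-33 ranked 68 of them. The 2 livers with no count of either arm enter at a ratio of 0 by construction, and without them the difference was 3.65 ± 0.84 (permutation p = 2.5e-04). Without eWAT LF replicates 1 and 4 it was 3.69 ± 0.90 (permutation p = 4.4e-04).

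Diet did not move the arm ratio beyond its spread. The log2 difference was -0.11 ± 1.34 for HFLF against LF in liver (SE, exact permutation p = 0.944) and 0.65 ± 1.73 in eWAT (exact p = 0.693). For HF against LF it was 0.27 ± 1.45 in liver (exact p = 0.866) and 0.68 ± 1.89 in eWAT (exact p = 0.721). For HFLF against HF it was -0.38 ± 1.38 in liver (exact p = 0.792) and -0.029 ± 1.70 in eWAT (exact p = 0.987). Of the 430 hairpins, 3.26% had an exact p under 0.05 for HFLF against LF in liver and 6.51% in eWAT. The shares were 3.02% and 3.26% for HF against LF in liver and eWAT, and 3.02% and 5.12% for HFLF against HF.

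**Figure D4:**
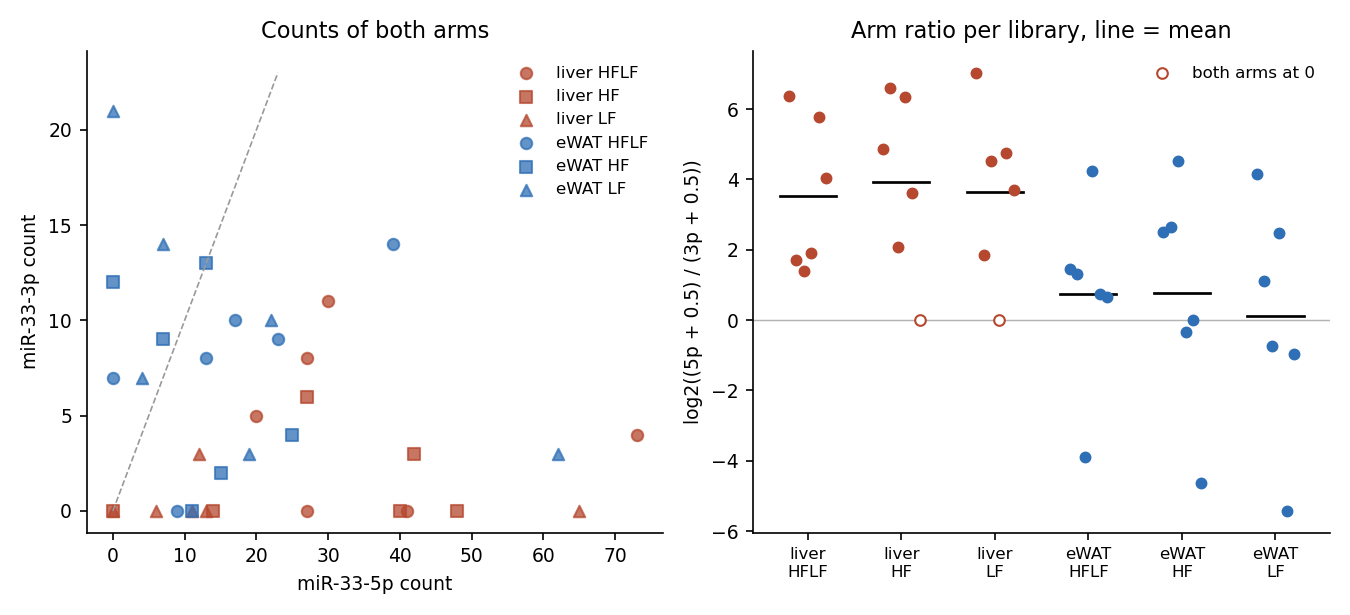
Left, counts of miR-33-3p against miR-33-5p in each library, with a dashed line where both are equal; right, log2 ratio of 5p to 3p counts (0.5 added to each) by tissue and diet group, with the group mean as a line and the 2 livers with no count of either arm as open circles. Livers lie below the dashed line or at 0, with a mean log2 ratio of 3.70, and eWAT libraries lie on both sides of it, with a mean of 0.54.

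The spread of miR-33 between replicates was larger than counting allows. Within groups the variance of miR-33-5p over its Poisson value was 14.7 in liver and 11.4 in eWAT, against medians of 13.4 and 9.64 for miRNAs of like mean count (108 in liver and 169 in eWAT). miR-33-5p was therefore about as variable as other miRNAs at its level. At a mean of 27.6 counts Poisson sampling would give almost no liver at 0, yet 2 were, and 62.0% of the like miRNAs in liver had as many zeros or more. In eWAT 3 libraries were at 0, and 44.4% of the like miRNAs had as many or more, with a median of 2. miR-33-3p was less variable than most miRNAs of its level, at 4.59 in liver and 4.27 in eWAT, against medians of 7.73 and 8.87.

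No relation between the arms across libraries passed a test. In liver the log2 TMM levels had Pearson's r = 0.21 (permutation p = 0.404) and Spearman's rho = 0.23 (permutation p = 0.359, n = 18). Leaving out the 2 livers farthest from the median of miR-33-5p brought r to 0.058. In eWAT r was -0.36 (permutation p = 0.137) and rho -0.33 (permutation p = 0.183, n = 18), and r was -0.33 without the 2 farthest libraries. Adjusted over the 2 tissues the p-values of r were 0.404 in liver and 0.274 in eWAT. Within eWAT groups r was 0.55 in HFLF, -0.42 in HF and -0.90 in LF, with 6 libraries each. Both arms rest on few counts, so a weak correlation is no finding here.

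miRNAs whose level followed miR-33-5p most closely across libraries were looked for among those of mean CPM 10 or more. In liver these were miR-3068-3p, miR-192-5p and miR-140-3p, with Spearman's rho of 0.71 each over 18 libraries and a median rho of 0.076 over the 222 miRNAs compared. Without the 2 livers in which miR-33 was at 0 they fell to 0.59, so part of the likeness came from those libraries. In eWAT they were miR-652-3p, miR-199a-5p and miR-181c-5p, with rho of 0.58, 0.58 and 0.57, and 0.42, 0.41 and 0.41 without LF replicates 1 and 4. They were the highest of 336 miRNAs compared there, whose median rho was 0.013. Across all 36 libraries miR-23b-3p, miR-30e-3p and miR-148b-3p were most alike, with rho of 0.80, 0.80 and 0.79 among 207 miRNAs with a median of 0.28. Those values contain the tissue difference, and all of these are descriptions in libraries that share depth and scaling. The partner arm miR-33-3p had rho of 0.23 in liver, -0.33 in eWAT and -0.16 over all libraries.

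Other miRNAs known for their part in cholesterol handling were set beside miR-33. The list held 19 miRNAs with a described link to cholesterol or lipoprotein handling, and its members do not share one target. Of these 17 could be tested, since miR-301b-3p and miR-758-3p were too scarce. By edgeR 0 of 17 passed in each of the 6 diet comparisons, with 0 at an unadjusted p under 0.05 in each liver comparison and 5, 4 and 1 in eWAT for HFLF against LF, HF against LF and HFLF against HF, where 98, 49 and 21 of all 638 miRNAs were. Without eWAT LF replicates 1 and 4 the list had 3, 0 and 1. DESeq2 called 3 in eWAT for HFLF against LF and 3 for HF against LF, all lower, and 0 in the other diet comparisons. Of all 638 miRNAs it called 33 and 16 in these 2 comparisons, every one lower. The LF group there includes eWAT LF replicates 1 and 4. In liver against eWAT, 8 were higher and 4 lower in HFLF, 7 higher and 5 lower in HF, and 5 higher and 4 lower in LF. Of all 681 miRNAs 48.6% were called in HFLF, 49.6% in HF and 47.4% in LF, and 19.2%, 17.6% and 16% were higher in liver in the same order. Under plain totals the split of the list was 6 higher and 9 lower in HFLF, 5 and 9 in HF, and 2 and 10 in LF. All miRNAs moved the same way under that scaling, with 58 higher and 368 lower in HFLF, 53 and 389 in HF, and 40 and 422 in LF. The median log2 difference of the list with TMM was 0.39 in HFLF, 0.37 in HF and -0.028 in LF, against -0.27, -0.48 and -0.60 for all 681 miRNAs in the same order. The LF group holds the 2 eWAT libraries with epithelial miRNAs, and 3 of the list, miR-96-5p, miR-182-5p and miR-183-5p, passed as higher in liver in HFLF and HF but not in LF. Without those 2 libraries all 3 passed in LF as well, at 3.34 for miR-96-5p, 4.20 for miR-182-5p and 3.76 for miR-183-5p on the log2 scale.

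The most abundant of the list in liver stood far above miR-33-5p. miR-122-5p, a hepatocyte miRNA whose loss lowers plasma cholesterol in mice, averaged 503893 CPM in liver and 1374 CPM in eWAT, a log2 difference of 10.26 ± 0.55 in LF (SE, adjusted p = 9.73e-17, edgeR). miR-26a-5p averaged 26355 CPM in liver and 78863 CPM in eWAT. Its LF difference of -0.33 ± 0.17 did not pass (adjusted p = 0.0973). Without the filter it passed (-0.40, adjusted p = 0.0461), and with DESeq2 as well (-0.55, adjusted p = 2.46e-05). It also passed under plain totals (-1.62, adjusted p = 7.47e-11) and with totals without miR-122-5p and miR-143-3p (-0.80, adjusted p = 2.34e-05). Without liver LF replicate 4 and HF replicate 6 it did not pass (-0.13, adjusted p = 0.297). Nor did it without eWAT LF replicates 1 and 4 (-0.36, adjusted p = 0.133). miR-148a-3p, which targets the low-density lipoprotein receptor and Abca1, averaged 9229 CPM in liver and 3094 CPM in eWAT and was higher in liver by 2.50 ± 0.29 in LF (adjusted p = 3.98e-09). miR-30c-5p, known to act on lipoprotein assembly, averaged 8968 CPM in liver and 15842 CPM in eWAT. After TMM scaling it was higher in liver by 0.33 ± 0.13 in LF (adjusted p = 0.0358), but this call was lost without the filter (0.27, adjusted p = 0.125), with DESeq2 (0.15, adjusted p = 0.246) and without eWAT LF replicates 1 and 4 (0.26, adjusted p = 0.173). With totals without miR-122-5p and miR-143-3p its difference was -0.13 (adjusted p = 0.344), and under plain totals it was -0.96 (adjusted p = 4.68e-08).

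Among the largest tissue differences of the list in LF were also miR-10b-5p and miR-185-5p. miR-10b-5p, described to act on Abca1 in macrophages, averaged 12 CPM in liver and 34423 CPM in eWAT, a log2 difference of -9.96 ± 0.45 (SE, adjusted p = 1.24e-19, edgeR). miR-185-5p averaged 359 CPM in liver and 278 CPM in eWAT and was higher in liver by 1.60 ± 0.17 (adjusted p = 5.57e-10), against 0.31 under plain totals (adjusted p = 0.0945). At 1.43 ± 0.98 in LF, the difference of miR-33-5p was close to that of miR-185-5p in size, and its error was larger.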

How the data were processed

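Small RNA libraries of 36 samples were made from TRI reagent RNA with the NEXTFLEX Small RNA-seq kit, per the labels' protocols; per the submitters' processing notes reads were handled with cutadapt and Bowtie on GRCm38.p6. No source used here gives their versions, the mismatches allowed or the use of the kit's random adapter bases. The authors deposited counts in 2118 lines of mature miRNA and precursor names, with CPM beside them. They also deposited log2 CPM tables of 171 liver and 180 eWAT miRNAs per the file headers. Neither log2 table lists miR-33, so counts were used. CPM was recomputed from library totals summed over the 1966 names, each by its line of the highest total. In column names, L or W was taken for the tissue, liver or eWAT, and R, H or C for the group, HFLF, HF or LF; no label spells this out.

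Counts were tested with edgeR 4.0.16 (R 4.3.3; TMM, filterByExpr with a minimum count of 10 and total of 15, robust quasi-likelihood, Benjamini-Hochberg adjustment over all miRNAs that passed), per tissue for diets and over 36 libraries for tissues and interactions. miR-33-3p failed the filter in liver, so its liver diet values come from the unfiltered fit. Log2 arm ratios and CPM used exact permutation of 6 against 6 libraries (924 assignments, smallest p 0.00216) with SciPy 1.17.1, or 100000 resamples within diet groups. Alternatives were DESeq2 1.42.0, no filter, plain totals, totals without miR-122-5p and miR-143-3p, summed lines, a pseudocount of 1, left-out libraries and a replicate block. Same-numbered samples deviated together at most weakly (r from -0.288 to 0.275), which cannot tell whether they share a mouse. No label pairs them, so no block was used in the fits reported. The scripts were tested on simulated data. Named miRNAs were both arms, their 3 neighbours on each side by mean CPM, the 3 most correlated per tissue and over all, and, of the cholesterol list, the 4 most abundant in liver and the 4 largest called differences in LF. The members and lists were chosen with earlier results of these data known. 0 columns of samples from outside the series were found.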

Additional observations from a re-analysis of the deposited data

Results flagged for a closer look

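In 2 of 18 groups of 6 libraries (each arm's CPM and the arm ratio, by tissue and diet) 1 library lay far from the others by Dixon's gap test; chance gives about 1 such group in 20. miR-33-5p in liver LF replicate 1 was at 4.89 CPM, with a gap to the next LF liver of 0.712 of the group's range, above the critical value for 6 samples. miR-33-3p in liver LF replicate 2 was at 0.352 CPM from 3 counts, and the other 5 LF livers were at 0. With 5 values at 0 any count fills the whole range, so neither the gap test nor its chance rate carries information for that group. No diet difference of the arms called in the report rests on either library, since none was called.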

How the results depend on the processing

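Of 802 alternative values, 739 kept their direction and side of the threshold, and 41 changed direction. Of the 739, 489 came from leaving out 1 library. Few main values had passed, so keeping the side of the threshold says little. The low counts of both arms limit the precision of all comparisons. The causes of the changes below were not tested. Without eWAT LF replicates 1 and 4 the eWAT difference of miR-33-5p was 0.81 for HF against LF and 0.92 for HFLF against LF, and the liver minus eWAT difference of those effects was -0.56 and -0.14. For miR-33-5p in liver against eWAT in HFLF, values that no longer passed were 2.45 without the filter, 1.35 with plain totals, 2.09 with totals without miR-122-5p and miR-143-3p, and a log2 ratio of CPM of 1.36 by exact permutation; over the 3 groups it was 0.83 with plain totals. In HF it passed with DESeq2 (1.91) and without liver LF replicate 4 and HF replicate 6 (2.53). For miR-33-3p in the same comparison, plain totals gave -0.42 in HFLF, -3.59 in LF and -2.15 over the 3 groups, the last 2 past the threshold, and the exact permutation gave -0.42 in HFLF. Under plain totals 422 of 681 miRNAs passed as lower in liver in LF, and 486 over the 3 groups.

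With a replicate block, miR-33-3p for HFLF against HF in eWAT was 0.10, miR-33-5p for liver against eWAT over the 3 groups was 2.16 (adjusted p = 0.00509, edgeR) and no call changed. No label says whether equal numbers mark the same mouse, and the block cannot tell. With a pseudocount of 1 the arm ratio of HFLF against LF livers was 0.16. Over all miRNAs, DESeq2 called 16 for HF against LF and 33 for HFLF against LF in eWAT, against 0 by edgeR. For the liver minus eWAT difference, it called 35 for the HF effect and 28 for the HFLF effect, against 17 and 13 by edgeR; edgeR called 6 for the HF effect without the filter, and 0 for each without eWAT LF replicates 1 and 4.

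Leaving out 1 library at a time gave these ranges on the log2 scale. For miR-33-3p, HF against LF ranged from -0.59 to 3.47 in liver and from -0.61 to 0.064 in eWAT, HFLF against HF in eWAT from -0.38 to 0.19, and the HF effect in liver minus eWAT from -0.066 to 4.66. For miR-33-5p in eWAT, HF against LF ranged from -0.71 to 0.18, HFLF against LF from -0.63 to 0.32 and HFLF against HF from -0.22 to 0.37. In liver against eWAT, miR-33-5p ranged from 2.32 to 2.84 in HFLF and from 1.87 to 2.36 in HF, and miR-33-3p from -5.81 to -2.05 in LF and from -2.05 to -0.79 over the 3 groups. The arm ratio ranged in liver from -0.46 to 1.05 for HF against LF, from -0.84 to 0.57 for HFLF against LF and from -1.17 to 0.15 for HFLF against HF, and in eWAT from -0.43 to 1.76, from -0.46 to 1.58 and from -1.11 to 0.90 for the same pairs. Over the 3 groups, the arm ratio of liver against eWAT ranged from 2.78 to 3.42, with permutation p from 3.9e-04 to 0.00243.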
